A study of Mus musculus with 7 samples.

Results

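The collagen genes of the mouse genome were examined in bulk RNA from skin tumours that arose with and without an added SOX2 allele. Members were all genes whose symbol follows the pattern of a collagen chain (Col, a type number, a, a chain number), leaving out Col7a1 and Col17a1, and reaching 5 reads in 1 tumour or more. Of 42 such genes 41 met the minimum and Col9a1 did not, and these 41 stand among 24433 genes tested and 55423 rows in the count table. They were grouped into 11 chains of fibril-forming types, 8 chains of the basement membrane zone (type IV, XV and XVIII) and 22 chains of other types. The tumours are cutaneous squamous cell carcinomas of C57BL/6J mice of both sexes, induced at 7 to 10 weeks of age. In the Ivl:BRAFV600E group, a tamoxifen-dependent Cre recombinase driven by the involucrin (Ivl) promoter, which is active in keratinocytes committed to differentiation, switched on 1 copy of oncogenic BRAF. The Ivl:BRAFV600E-SOX2LSL group carried the same Cre and the same BRAF allele, and in addition 1 copy of a Rosa26 LSL-SOX2-IRES-eGFP allele, from which Cre releases SOX2 together with the green reporter. The study made this pair of models to ask what SOX2 adds in these progenitors. Of 4 labelled Ivl:BRAFV600E and 3 labelled Ivl:BRAFV600E-SOX2LSL tumours, 3 of each were used, each from its own mouse, and they are called A, B and C and D, E and F. The letters are names only. A and B also carried a tdRFP reporter allele, A, B and F came from females and C, D and E from males, and the SOX2 tumours had all been collected sooner after induction, so that time since induction and genotype cannot be told apart.

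Collagens are extracellular proteins in which chains wind into a rope-like helix. The fibrillar types I, III and V form the fibres of the dermis and of tumour stroma and come mainly from fibroblasts. Type IV chains form the sheet-like network of the basement membrane, in which the widespread alpha1 and alpha2 chains are joined in skin by alpha5 and alpha6 chains that keratinocytes also make, and types VI, XII and XIV link fibres to cells and to each other. New chains are hydroxylated, folded with chaperones, trimmed outside the cell and cross-linked by lysyl oxidases and peroxidasin.

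Each tumour had between 23565432 and 31152826 reads on genes, and levels are given as counts per 1 M reads after scaling by the trimmed mean of M values (CPM). A count of 3 reads, taken as the smallest level told from 0, corresponded to 0.0839 to 0.143 CPM. Sox2 lay between 0.238 and 0.716 CPM in the Ivl:BRAFV600E tumours and between 155 and 182 CPM in the Ivl:BRAFV600E-SOX2LSL tumours, and all 6 had the basal keratinocyte keratin Krt5 at 2371 CPM or more. The long noncoding gene Gm26917 took 11.2% to 16.8% of the reads. The differentiation keratins Krt1 and Krt10 together took 5.75% to 6.80% of reads in A to C against 0.180% to 2.17% in D to F, so that shares of reads and scaled levels are given side by side where they differ.

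Collagen transcripts as a whole were more abundant in the SOX2 tumours, but tumours of the same genotype also differed widely. Reads on the 41 genes made up 0.351%, 0.171% and 0.611% of the reads in A, B and C, and 1.64%, 0.632% and 0.811% in D, E and F. Every SOX2 tumour thus lay above every Ivl:BRAFV600E tumour, with C and E close together and D far above the rest. The means were 0.378% ± 0.221 (SD, n = 3) and 1.03% ± 0.536 (SD, n = 3), a 2.72-fold difference (exact permutation test, two-sided, p = 0.1, the smallest p that 3 against 3 can give). As summed CPM after scaling, A, B and C had 3733, 2079 and 6838 and D, E and F had 13045, 5905 and 7561. On this scale C lay above E, the groups overlapped, and the difference was 2.1-fold (exact permutation test, p = 0.2). In bulk tissue, fewer cells of a type and less RNA per cell cannot be told apart.

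**Figure D1:**
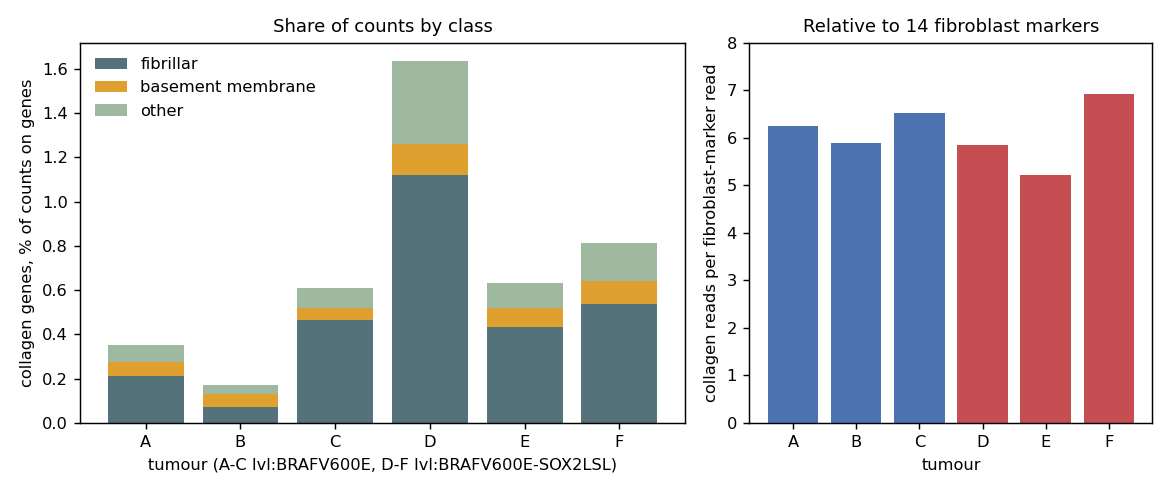
The left panel stacks the share of reads on fibrillar, basement membrane and other collagen genes in each tumour (y axis, % of reads on genes), and the right panel gives reads on the 41 collagen genes per read on 14 fibroblast marker genes, with 1 bar per tumour. The left bars reach 0.171% to 0.611% in A to C and 0.632% to 1.64% in D to F, while the right bars lie between 5.21 and 6.92 in all 6 tumours with no split between the groups.

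The collagen share moved with the reads on fibroblast markers. The 14 fibroblast marker genes, of which Lox is also counted below among the cross-linking enzymes, took 0.0562%, 0.0291% and 0.0938% of the reads in A, B and C and 0.280%, 0.121% and 0.117% in D, E and F. Per read on these markers there were 6.25, 5.89 and 6.51 collagen reads in A, B and C and 5.84, 5.21 and 6.92 in D, E and F. The collagen reads per marker read overlapped fully between the groups and differed 0.963-fold (exact permutation test, two-sided, p = 0.6, a ratio added after the data were seen). None of the 14 markers passed the test on its own by edgeR (5 at an unadjusted p below 0.05). Their median log2 fold change was 1.13, with single markers from -0.12 (Lum) to 1.98 (Lox) and 13 of 14 above 0. Fn1 and Postn had the highest levels of the list in every tumour and so weighed most in the summed reads. The summed level of the 14 markers ran from 353 to 1050 CPM in A to C and from 1093 to 2234 CPM in D to F. All 14 were detected in D to F, whereas in B Clec3b had no reads and Mfap5 had 0.092 CPM, under the level of 3 reads. The part of fibroblast number in the collagen levels was not tested.

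Gene by gene, 1 of the 41 members passed the test across all genes (edgeR's quasi-likelihood test, adjusted p below 0.05), the basement membrane chain Col4a5, against 3.9% of all genes tested. At an unadjusted p below 0.05 there were 12 of 41 members, all with a positive log2 fold change of Ivl:BRAFV600E-SOX2LSL over Ivl:BRAFV600E. Over all 24433 genes there were 6280 (25.7%) in either direction, 3551 of them with a positive log2 fold change. The log2 fold change was above 0 in 33 members (80.5%, against 52.8% of all genes) and below 0 in 8. It was above 1 in 21 members, or 51.2% of them, against 17.7% of all genes, and the median was 1.01 against 0.04. Without tumour D, 7 of 41 members lay above 1 (17.1%, against 13% of all genes) and their median was 0.59, and without tumour B 11 of 40 did (27.5%, against 17.3%). In 8 members every SOX2 tumour lay above every Ivl:BRAFV600E tumour, a share of 19.5% that is near the 18.2% of all genes, and no member showed the opposite order, which 16% of all genes did. The 8 include Col6a6, which had 3 reads or fewer in B and C.

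The collagen genes varied more between tumours of 1 genotype than all tested genes did as a whole, and so did the fibroblast markers. The median SD of the log2 CPM within a group was 0.64 in the Ivl:BRAFV600E tumours and 0.63 in the SOX2 tumours, against 0.31 and 0.38 over all genes. D had the highest level in 24 of 41 members (58.5%, against 28.6% of all genes), and B had the lowest in 28 of 41 (68.3%, against 20.3%). The pattern was not particular to collagens. In the 14 fibroblast markers the median SDs were 1.20 and 0.77, with D highest in 64.3% and B lowest in 85.7%. In the 45 genes of collagen synthesis and binding described below they were 0.45 and 0.59, with D highest in 71.1% and B lowest in 48.9%.

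**Figure D2:**
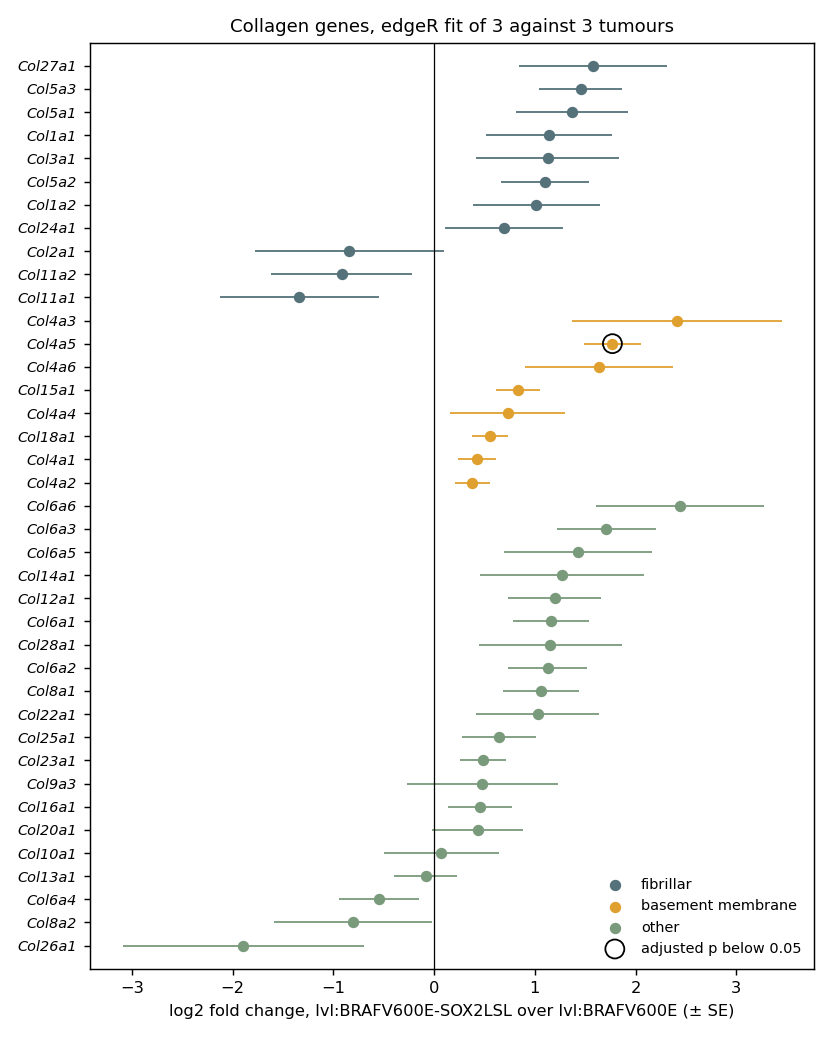
Log2 fold change of Ivl:BRAFV600E-SOX2LSL over Ivl:BRAFV600E (x axis, edgeR, 3 against 3 tumours) with its SE for 39 collagen genes, coloured by class, with Col9a2 and Col19a1 left out because 5 of 6 tumours had 3 reads or fewer. Only Col4a5, ringed, passed the adjusted threshold, the 8 basement membrane chains all lie to the right of 0, and the fibrillar chains divide into 8 to the right and 3 to the left.

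Among the fibril-forming chains none of 11 passed the test. The median log2 fold change was 1.10, with 8 above 0 and 3 below. Col1a1 and Col1a2 encode the chains of type I collagen, the main protein of the dermis. Col1a1 (chromosome 11, 94936224 to 94953042 on GRCm38) had 968, 385 and 2284 CPM in A, B and C and 4019, 1691 and 2293 CPM in D, E and F. The value of C lay above that of E and level with that of F, and the log2 fold change of 1.14 (SE 0.63) had an adjusted p of 0.296 by edgeR (0.128 without C). Col1a2 had 501, 173 and 1126 CPM against 1807, 805 and 1023 CPM, with the same order of tumours at both ends and a log2 fold change of 1.01 (adjusted p = 0.349). Col3a1, the only chain of type III collagen, had 505, 146 and 1390 CPM against 2085, 1166 and 1210 CPM (log2 fold change 1.13, adjusted p = 0.354). In these genes B was the lowest tumour and D the highest, and C stood within the range of the SOX2 tumours.

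Type V chains, which join type I fibrils and limit their width, showed differences of similar size. Col5a1 had 117, 49.4 and 199 CPM in A, B and C and 518, 185 and 241 CPM in D, E and F (log2 fold change 1.37, SE 0.56, adjusted p = 0.180). Col5a2, which lies beside Col3a1 on chromosome 1, had 87.5, 57.3 and 148 CPM against 331, 136 and 160 CPM (log2 fold change 1.10, adjusted p = 0.173). In both genes C exceeded E. Col5a3, the type V chain with the lowest level per length, had 35.2, 24.3 and 43.0 CPM against 156, 54.7 and 70.1 CPM, and it was the fibrillar chain whose groups did not overlap (log2 fold change 1.45, SE 0.41, adjusted p = 0.091). The rarer Col27a1, a chain known from cartilage, had 3.44, 2.03 and 4.32 CPM against 21.5, 2.95 and 4.80 CPM. Its log2 fold change of 1.58 (adjusted p = 0.228) rested on D and was 0.24 without that tumour. Col24a1 had 1.25 to 3.85 CPM in A to C and 1.85 to 6.94 CPM in D to F.

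Chains of types II and XI, which belong to cartilage fibrils, were the fibrillar members with a negative log2 fold change. Col11a1 had 8.39, 1.62 and 12.2 CPM in A, B and C and 1.15, 2.14 and 5.52 CPM in D, E and F (log2 fold change -1.34, SE 0.79, adjusted p = 0.326). A and C were high, and B lay among the SOX2 tumours. Col11a2 had 0.369 to 2.39 CPM in A to C and 0.421 to 0.699 CPM in D to F, with A the highest. Col2a1 did not exceed 0.475 CPM in any tumour. The summed level of 9 tested cartilage, bone and tendon markers was 23.9, 2.03 and 10.9 CPM in A, B and C and 1.54 to 4.04 CPM in D to F, none of these markers passed the test by edgeR (2 at an unadjusted p below 0.05), and their part in the values of Col11a1 was not tested.

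**Figure D3:**
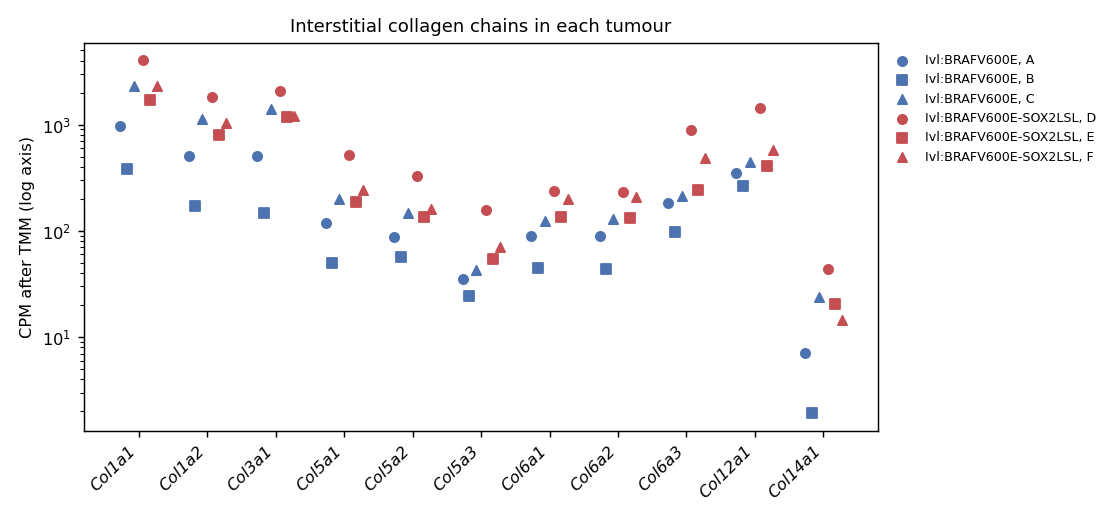
Level of 11 interstitial collagen chains in each tumour (y axis, CPM after scaling, log axis), with Ivl:BRAFV600E tumours A, B and C in blue and Ivl:BRAFV600E-SOX2LSL tumours D, E and F in red. In Col1a1, Col1a2 and Col3a1 the Ivl:BRAFV600E tumours spread from B to C over a wider range than the SOX2 tumours, and C reaches the red points, whereas in Col5a3, Col6a1, Col6a2 and Col6a3 the colours separate.

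The basement membrane class held the only call. All 8 chains had a positive log2 fold change, against 52.8% of all genes, with a median of 0.78. In 3 of them every SOX2 tumour lay above every Ivl:BRAFV600E tumour, a share of 37.5% against 18.2% of all genes. Col4a5, the alpha5 chain of type IV collagen, had 7.84, 6.74 and 5.08 CPM in A, B and C and 15.4, 29.8 and 22 CPM in D, E and F. The lowest SOX2 tumour, D, lay clearly above the highest Ivl:BRAFV600E tumour, A. The means were 6.56 ± 1.39 CPM (SD, n = 3) and 22.4 ± 7.22 CPM (SD, n = 3), and Col4a5 rose by 1.77 on the log2 scale (SE 0.29, adjusted p = 0.028, edgeR). The size of the difference held between 1.51 and 1.98 in all fits, but the call did not: with tumour A left out the adjusted p was 0.119, with B 0.097, with C 0.076, with E 0.063, with F 0.060 and with D 0.0077, and with sex as a covariate it was 0.066.

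Col4a5 lies head to head with Col4a6, the gene of the alpha6 chain, on the X chromosome of GRCm38. Col4a5 runs forward from 141475385 to 141689234 and Col4a6 backward from 141474076 to 141165403, so that 1309 bases separate the start sites. The neighbours differed in 1 tumour. Col4a6 had 6.38, 7.39 and 3.18 CPM in A, B and C and 2.91, 26.2 and 23.7 CPM in D, E and F. E and F were more than 3 times as high as any Ivl:BRAFV600E tumour, while D was the lowest of all 6. The log2 fold change of 1.64 (SE 0.74) did not pass (adjusted p = 0.215), and without D it was 2.14 (adjusted p = 0.015). D was also the tumour with the least Krt1 and Krt10.

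The stretches before the start sites of both genes are shown because the pair shares this region and yet parted in D, with that of Col3a1 beside them as the gene of the fibrillar group with the second highest level per length. Each is 200 bases long, from 250 to 51 bases before the RefSeq start site (GRCm38.p6), written in the direction of the gene. Capitals mark CCAAT, a common promoter box, ACAAAG and ACAATG, core sequences known to be bound by SOX proteins, and GGGCGG, the GC box, on either strand. The intervals are chrX:141475169-141475368 on the forward strand for Col4a5, chrX:141474127-141474326 on the reverse strand for Col4a6 and chr1:45311288-45311487 on the forward strand for Col3a1.
Col4a5: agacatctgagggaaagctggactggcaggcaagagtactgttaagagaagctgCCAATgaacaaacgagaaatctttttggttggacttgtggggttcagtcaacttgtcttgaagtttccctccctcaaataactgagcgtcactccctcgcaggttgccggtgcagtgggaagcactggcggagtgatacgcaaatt
Col4a6: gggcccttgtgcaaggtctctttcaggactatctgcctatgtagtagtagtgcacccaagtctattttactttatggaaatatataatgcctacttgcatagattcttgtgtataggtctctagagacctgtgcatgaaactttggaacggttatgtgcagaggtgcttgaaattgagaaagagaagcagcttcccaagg
Col3a1: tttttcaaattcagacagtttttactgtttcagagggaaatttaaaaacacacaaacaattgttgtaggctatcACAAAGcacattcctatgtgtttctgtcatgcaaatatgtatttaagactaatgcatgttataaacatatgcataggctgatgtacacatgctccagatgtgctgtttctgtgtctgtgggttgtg

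Col4a5 held 1 CCAAT, Col3a1 held 1 ACAAAG, and Col4a6 held none of these letters in this window. RefSeq windows were matched for 32 of the 41 members. The names without one were Col1a1, Col2a1, Col4a3, Col5a2, Col9a3, Col12a1, Col14a1, Col22a1 and Col26a1. CCAAT was present in 26.5% of 34 member windows and in 28.4% of 32841 windows of all genes, ACAAAG in 11.8% and 13.6%, ACAATG in 0% and 8.94%, and GGGCGG in 17 of the 34 member windows and in 24.6%. A match of letters is a description of the window and not a binding site.

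The main type IV chains had the smallest log2 fold changes of the basement membrane class. Col4a1 had 267, 305 and 222 CPM in A, B and C and 415, 286 and 365 CPM in D, E and F (log2 fold change 0.43, SE 0.19, adjusted p = 0.212). Col4a2 had 189, 222 and 165 CPM against 287, 209 and 252 CPM (log2 fold change 0.38, adjusted p = 0.222). B, the tumour with the least fibrillar collagen, was the highest Ivl:BRAFV600E tumour in both and lay above E, so the order of tumours was not that of the fibrillar chains. These genes overlap head to head by 22 bases on chromosome 8, and the strand setting of the counting is not given in the sources used here. Type IV chains took 12.6%, 26.1% and 5.79% of the collagen reads in A, B and C and 5.57%, 9.36% and 8.77% in D, E and F. Col4a4 and Col4a3, which pair with Col4a5 in the kidney and start 72 bases apart, were low. Col4a4 had 1.36, 0.878 and 1.09 CPM against 3.55, 1.04 and 0.939 CPM. Col4a3 had 0.273, 0.046 and 0.333 CPM against 2.83, 0.324 and 0.361 CPM. In both genes D stood apart and E and F were level with A and C.

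Col15a1 and Col18a1 encode the multiplexins, proteins of the basement membrane zone with sugar side chains. Col15a1 had 48.7, 31.7 and 47.9 CPM in A, B and C and 87.1, 59.8 and 81.6 CPM in D, E and F (log2 fold change 0.83, SE 0.22, adjusted p = 0.077). Col18a1, whose end piece is endostatin, had 189, 151 and 165 CPM against 301, 205 and 233 CPM (log2 fold change 0.55, SE 0.18, adjusted p = 0.118). In both the groups did not overlap, and neither passed the adjusted threshold. Vessel cells also make these proteins. None of 8 endothelial markers passed the test by edgeR. At an unadjusted p below 0.05 there were 2, Pecam1 with a positive and Kdr with a negative log2 fold change. A positive log2 fold change was seen in 6 of the 8. Their summed level was 190 to 215 CPM in A to C and 198 to 243 CPM in D to F. Their part in the levels of Col15a1 and Col18a1 was not tested.

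**Figure D4:**
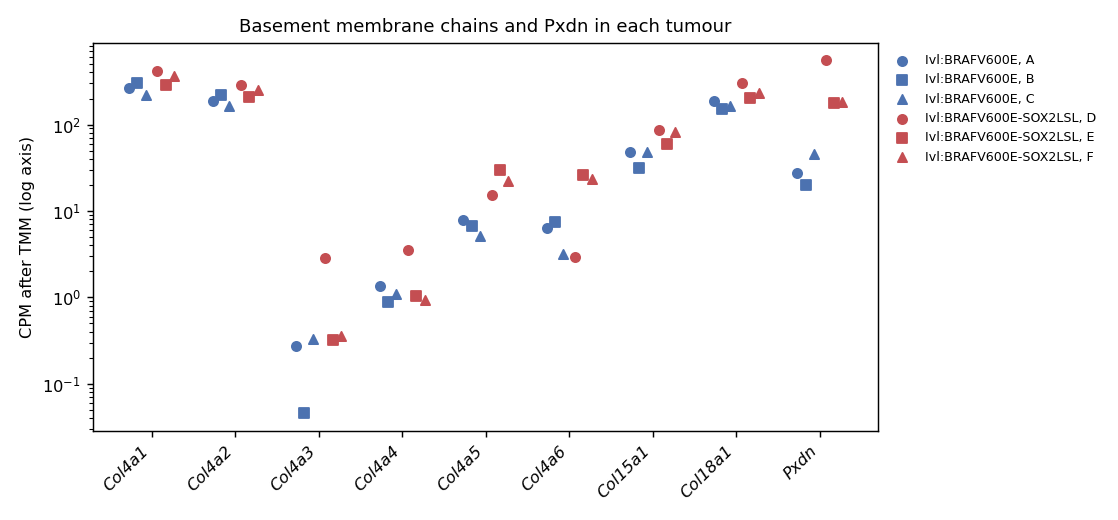
Level of the 8 basement membrane chains and of Pxdn, the enzyme that cross-links type IV collagen, in each tumour (y axis, CPM after scaling, log axis), with Ivl:BRAFV600E tumours in blue and Ivl:BRAFV600E-SOX2LSL tumours in red. Col4a5 and Pxdn separate the colours, Col4a6 does so except for tumour D at 2.91 CPM, and Col4a1 and Col4a2 overlap.

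Type VI collagen forms beaded filaments around cells, and its 3 main chains separated the groups without passing the test. Over all genes, 18.2% lay higher in every SOX2 tumour. Col6a3 had 183, 98.1 and 214 CPM in A, B and C and 894, 244 and 480 CPM in D, E and F (log2 fold change 1.71, SE 0.49, adjusted p = 0.093). Col6a1 had 89.2, 44.9 and 124 CPM against 239, 136 and 201 CPM (log2 fold change 1.16, adjusted p = 0.117). Col6a2, its neighbour on chromosome 10, had 89.2, 43.8 and 129 CPM against 231, 132 and 209 CPM (log2 fold change 1.13, adjusted p = 0.134). The gap between C and E was small in all of them, and B was again the lowest. The alternative chains, clustered on chromosome 9, were scarce. Col6a6 was at 0.136, 0.046 and 0.048 CPM in A, B and C and at 0.839, 0.162 and 0.361 CPM in D, E and F, with 3 reads or fewer in B and C. Col6a5 had 0.443, 0.139 and 0.998 CPM in A, B and C and 1.34, 0.615 and 2.31 CPM in D, E and F, so that C lay above E. Col6a4 had 1.77, 1.80 and 1.43 CPM against 1.76, 0.777 and 0.867 CPM, a log2 fold change of -0.55 (adjusted p = 0.415).

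Col12a1 and Col14a1 encode collagens that sit on the surface of type I fibrils. Col12a1, the larger part of this pair by level per length, had 348, 266 and 440 CPM in A, B and C and 1433, 411 and 575 CPM in D, E and F (log2 fold change 1.20, SE 0.46, adjusted p = 0.163). D was more than 2 times as high as any other tumour, and C lay above E. Col14a1 had 7.06, 1.94 and 23.7 CPM against 43.5, 20.6 and 14.4 CPM (log2 fold change 1.27, SE 0.82, adjusted p = 0.363). Here C was the second highest tumour. Col16a1, of the same family, had 17.0 to 35.4 CPM against 28 to 48.0 CPM. Col8a1, a short-chain network collagen of vessel walls, had 15.3, 15 and 18.3 CPM in A, B and C and 48.3, 37.7 and 15.5 CPM in D, E and F, so that F lay with the Ivl:BRAFV600E tumours (log2 fold change 1.06, adjusted p = 0.14). Its partner Col8a2 had 3.27, 0.277 and 2.90 CPM against 1.85, 0.712 and 1.12 CPM (log2 fold change -0.81, adjusted p = 0.549).

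The transmembrane collagens are anchored in the cell surface, and none of the 3 passed the test by edgeR (0 at an unadjusted p below 0.05). Col13a1 had 6.24, 4.66 and 3.52 CPM in A, B and C and 3.38, 4.18 and 6.07 CPM in D, E and F (log2 fold change -0.09, adjusted p = 0.891). Col23a1 had 16.6 to 20.3 CPM against 17.3 to 29.7 CPM (log2 fold change 0.49), and Col25a1 had 0.921 to 2.22 CPM against 2.17 to 2.66 CPM (log2 fold change 0.64). Of the remaining members, Col10a1, the collagen of cartilage under ossification, had 0.647 to 2.69 CPM in A to C and 0.923 to 2.46 CPM in D to F, and Col28a1 had 0.185 to 1.43 CPM against 1.26 to 3.64 CPM. Col9a2, Col9a3, Col19a1, Col20a1, Col22a1 and Col26a1 were mostly under 1 CPM. For Col19a1 the only reads were in E (0.518 CPM), and Col26a1 exceeded 0.130 CPM only in B (1.25 CPM).

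Per kilobase of exon, Col1a1 was the most abundant chain in both groups, with a mean of 185 CPM per kb in A to C and 406 CPM per kb in D to F, followed by Col3a1 (69.3 and 152) and Col1a2 (48.3 and 97.5). In A to C the next were Col4a1 (35.4), Col4a2 (29.0), Col18a1 (24), Col12a1 (23.1) and Col6a1 (19.6), with Col6a3 at 13.8. In D to F the next were Col12a1 (52.9), Col4a1 (47.6), Col6a3 (45.1), Col6a1 (43.9) and Col4a2 (37.7), with Col18a1 at 35.1. Among the SOX2 tumours Col1a1 lay above Col3a1 without overlap, whereas the ranges of the chains below overlapped from each to the next, and in Col12a1 and Col6a3 the value of D lay far above those of E and F. Col4a5 had 0.976 and 3.33 CPM per kb and Col4a6 0.709 and 2.21. Col1a1, Col1a2 and Col3a1 together took 52.9%, 33.8% and 70.2% of the collagen reads in A, B and C and 60.6%, 62.0% and 59.9% in D, E and F. This summed share was alike among the SOX2 tumours and varied among the others.

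Ratios between collagen chains, of the same type or of different types, were compared within tumours, 8 ratios in all, each per kilobase. The ratio of Col1a1 to Col1a2 stayed between 3.65 and 4.24 in the 6 tumours, that of Col4a2 to Col4a1 between 0.779 and 0.838, and that of Col6a2 to Col6a1 between 0.508 and 0.546. Among the 8, groups were separate in 2. Col4a5 to Col4a1 was 0.033, 0.025 and 0.025 in A, B and C and 0.041, 0.116 and 0.067 in D, E and F, a log2 difference of 1.32 (exact permutation test, two-sided, p = 0.1, adjusted p = 0.40). Col5a2 to Col5a1 was 0.660, 1.03 and 0.656 against 0.566, 0.651 and 0.586, a log2 difference of -0.35 (exact permutation test, p = 0.1, adjusted p = 0.40). With 3 tumours a group no ratio could reach a smaller p.

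Genes for the synthesis, processing, cross-linking and binding of collagen were listed apart from the chains. Of 45 listed and tested genes, 4 rose and none fell by edgeR's test at an adjusted p below 0.05, against 3.9% of all genes in either direction. At an unadjusted p below 0.05 there were 23, all with a positive log2 fold change, against 25.7% of all genes in either direction (6280 genes, 3551 of them positive). The median was 0.98 against 0.04 over all genes, and in 23 the SOX2 tumours lay above all others (18.2% of all genes did so). Pxdn, peroxidasin, which forms the sulfilimine bonds of the type IV network, had 27.6, 20.2 and 45.6 CPM in A, B and C and 553, 177 and 184 CPM in D, E and F. It rose by 3.29 on the log2 scale (SE 0.55, adjusted p = 0.029). Ddr2, a receptor kinase for fibrillar collagen, had 18.2, 10.5 and 21.7 CPM against 64.1, 51.1 and 45.1 CPM and rose by 1.67 (SE 0.28, adjusted p = 0.029). Pcolce2, an enhancer of propeptide trimming, had 2.56, 3.28 and 3.09 CPM against 9.04, 14.4 and 7.11 CPM and rose by 1.78 (SE 0.30, adjusted p = 0.031). Loxl4, a lysyl oxidase, had 2.01, 1.29 and 2.42 CPM against 5.65, 7.87 and 4.40 CPM and rose by 1.64 (SE 0.34, adjusted p = 0.047). Pxdn was highest in D, whereas Pcolce2 and Loxl4 were highest in E. No gene of the list passed without tumour A, B, C or E or with sex as a covariate, and without F only Pcolce2 and Pxdn did.

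The 7 cross-linking enzymes all had a log2 fold change above 1, with a median of 1.65, 2 of them called (Loxl4 and Pxdn). In 6 of the 7, D was the highest tumour, and in all of them B was the lowest. Lox had 19.7, 1.99 and 31.8 CPM in A, B and C and 124, 52.8 and 34.7 CPM in D, E and F (log2 fold change 1.98, SE 0.88, adjusted p = 0.210). Adamts14, a propeptide protease, had 0.853, 0.139 and 2.19 CPM against 9.15, 1.91 and 2.89 CPM (log2 fold change 2.14, adjusted p = 0.199), so that E overlapped with C. Values near 0 were seen in several genes of the list. P4hb, the beta subunit of prolyl 4-hydroxylase, had a log2 fold change of -0.16 (630 to 726 CPM against 575 to 633 CPM). Ppib, cyclophilin B, had -0.15, the hydroxylase-group gene P3h4 had 0.007 and the export gene Mia3 had 0.06. The median of the 12 listed hydroxylase-group genes was 0.64. At the low end of the list stood Tll2 (log2 fold change -1.46), Gp6 (-1.26) and Itga10 (-0.42), none of them above 1 CPM in any tumour.

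Markers of other cells moved with genotype as well. Of 13 tested skeletal muscle markers 11 rose, from a summed 4.60 to 17.8 CPM in A to C to 793 to 3413 CPM in D to F, with Tnnc2 not tested for want of reads, and of 6 leukocyte markers Ptprc and Csf1r rose (the 6 summed to 45.8 to 67.6 against 101 to 211 CPM). None of 6 fat cell markers passed the test by edgeR (2 at an unadjusted p below 0.05), with summed levels of 17.5 to 44.2 CPM in A to C and 11.2 to 80.2 CPM in D to F. Of these, Adipoq, Plin1 and Cidec were at 0.285 CPM or less in every tumour but D, where they had 4.20, 8.36 and 8.14 CPM, whereas Fabp4, the most abundant of the list, had 43.6, 26.7 and 16.1 CPM against 36.4, 10.7 and 25.7 CPM and was highest in A. No pericyte or smooth muscle marker of 8 passed the test by edgeR, with summed levels of 453 to 557 against 423 to 534 CPM. Their log2 fold change was above 0 in 5 and below 0 in 3. The 2 at an unadjusted p below 0.05, Rgs5 and Cspg4, were lower in every SOX2 tumour than in every Ivl:BRAFV600E tumour. None of 3 tested muscle stem cell markers passed either (2 at an unadjusted p below 0.05). Of 6 Schwann cell markers Ncam1 rose, with summed levels of 4.06 to 14 against 15.7 to 31.4 CPM. Of 10 keratinocyte markers Epcam rose and none fell at the adjusted threshold. The log2 fold change was below 0 in 6 of the 10, and 5 of these (Krt1, Krt10, Dsp, Dsc3 and Perp) were lower in every SOX2 tumour than in every Ivl:BRAFV600E tumour. At an unadjusted p below 0.05 there were 6 keratinocyte markers, 2 of them with a positive log2 fold change, and the summed level was 93456 to 139400 CPM in A to C and 18007 to 56161 CPM in D to F. The part of these cells in the collagen values was not tested.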

How the data were processed

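Bulk tumour RNA depleted of ribosomal RNA was sequenced, and the authors deposited raw read counts per gene for the whole series, without normalisation or pooling. The submitters' processing notes name FastQC 0.11.8, Trim Galore, HISAT2 2.1.0 and featureCounts of Subread 1.6.3, with GRCm38. Whether strand or multimapping reads were used is not given in the sources used here. Columns are named by mouse and were tied to genotype and sex through the list of mice that accompanies the study. There was 1 column whose mouse is not on that list, and it was not used. The labels give 4 Ivl:BRAFV600E and 3 Ivl:BRAFV600E-SOX2LSL tumours, so by count this column would be the remaining Ivl:BRAFV600E tumour. Its name, however, begins as those of the SOX2 columns do and not as those of the Ivl:BRAFV600E columns. Its genotype was therefore left unsettled. With this column left out, the test designed for up to 4 against 3 was run on 3 against 3.

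Genes with at least 5 reads in 1 tumour were kept, as in the study, libraries were scaled by TMM, and genotypes were compared with edgeR 4.0.16 (quasi-likelihood test, Benjamini-Hochberg adjustment over all genes, log2 CPM with a prior count of 2) in R 4.3.3. Coordinates and exon lengths come from GENCODE M21. Shares of reads and chain ratios were compared by exact permutation tests over tumours. The scripts were tested on simulated counts. Depth was 23565432 to 31152826 reads, and the number of tumours limits the precision. P-values measure the spread between tumours of separate mice.

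The members and gene lists were chosen with earlier results of these data known. Values per tumour are given for called members, for chains of types I, III, IV, V, VI, XII, XIV, XV and XVIII, for the 5 largest log2 fold changes in each direction among members with a mean of at least 1 CPM, of which 4 were negative, and for called genes and the 3 largest changes in each direction of the synthesis list. Col8a1, P4hb, Ppib, P3h4 and Mia3 were added after their values were seen. Alternatives were DESeq2 1.42.0, limma 3.58.1 (voom with sample weights), other scaling, other filters, sex as a covariate, an adjusted p below 0.1 and each tumour left out. A fit that left out the 10 most counted genes and the ratio to fibroblast markers were added after the data were seen.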

Additional observations from a re-analysis of the deposited data

How the results depend on the processing

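The count of members called, 1 in the reported fit, was 6 with DESeq2 (Col4a5, Col5a3, Col6a1, Col6a2, Col6a3 and Col15a1), 4 without a filter on low counts, 4 at an adjusted p below 0.1 (Col4a5, Col5a3, Col6a3 and Col15a1), 0 with sex as a covariate (11 at an unadjusted p below 0.05), and 0 to 2 with each tumour left out. It was 2 without D (Col4a5 and Col4a6), 1 without F (Col8a1, not Col4a5) and 0 without A, B, C or E. All genes called, 954, became 3653 with DESeq2, 2142 with limma voom, 1759 without a filter, 228 with sex as a covariate, and 22 to 1575 with each tumour left out, 22 of them without A and 1575 without D. The calls in the synthesis list, 4, became 15 with DESeq2, 0 with sex as a covariate, and 0 to 6 with each tumour left out. The cause of these changes was not tested. Leaving out a tumour changes both the group size and the tumours compared, and these were not told apart.

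The median log2 fold change of the basement membrane chains, 0.78, was 0.54 with limma voom and 0.50 to 1.0 with each tumour left out. The fibrillar median, 1.10, ran from 0.60 (without D) and 0.65 (without B) to 1.65 (without C). The share of reads kept its direction with each tumour left out (1.91-fold to 3.93-fold) and turned to 0.963-fold per fibroblast-marker read. Some small chain ratios changed sign: Col5a1 to Col1a1, a log2 difference of 0.04, ran from -0.13 (without C) and -0.04 (without D) to 0.15, and Col6a2 to Col6a1, -0.02, ran from -0.057 to 0.0020 (without C). Col4a4 turned to -0.013 with limma voom and ran from -0.18 (without D) to 1.04 with each tumour left out, and Col13a1 turned to 0.13 with sex as a covariate and ran from -0.34 to 0.15 with each tumour left out (0.15 without A and 0.09 without D). No paired analysis was possible because the columns carry no replicate number. For members at or near 3 reads in several tumours, such as Col6a6, Col9a2 and Col19a1, depth limits the comparison.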

Other observations

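Collagen receptors, chosen for description after their values were seen, differed from each other. Itgb1, the beta1 subunit shared by the collagen-binding integrins, had 202, 197 and 194 CPM in the Ivl:BRAFV600E tumours A, B and C and 1142, 373 and 321 CPM in the Ivl:BRAFV600E-SOX2LSL tumours D, E and F (log2 fold change 1.63, SE 0.47, adjusted p = 0.096, edgeR). Its partner Itga2, an integrin chain of keratinocytes and platelets, had 16.3, 19.7 and 13.4 CPM against 120, 25 and 32.9 CPM (log2 fold change 1.85, adjusted p = 0.11). In both genes the groups were separate and D was far above E and F. Ddr1, the epithelial relative of Ddr2, had 85.8, 111 and 117 CPM against 135, 147 and 146 CPM (log2 fold change 0.45, adjusted p = 0.120). Mrc2, which takes up collagen fragments, had 49.3, 51.6 and 56.7 CPM against 68.8, 38.2 and 40.1 CPM (log2 fold change -0.10, adjusted p = 0.825). Of 10 genes in this group 1, Ddr2, passed the test.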
